A study of Mus musculus with 12 samples.

Results

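The genes described here are 5 erythroid genes, namely the alpha globin genes Hba-a1 and Hba-a2, the beta globin genes Hbb-bs and Hbb-bt, and the heme synthesis gene Alas2. They were taken by symbol from a table of read counts for 39756 mouse genes, and each symbol matched 1 gene. The 5 genes were chosen with results of these data known, so their levels and the counts of members called below are a description, and p-values are printed only for other genes. The RNA came from ischemic hemispheres of 12 male C57BL/6J mice, 9 to 10 weeks old by the study's methods, in 3 groups of 4. Sham mice underwent sham surgery. In Vehicle and LJP mice the middle cerebral artery, which feeds much of a hemisphere, was closed with a filament and then reopened (tMCAO, transient middle cerebral artery occlusion). The closure lasted 45 min in the study's methods. LJP mice received Laminaria japonica polysaccharide, a sulfated polysaccharide of a brown seaweed, by the intragastric route from 14 days before surgery and on after it in the study's methods, and Sham and Vehicle mice received saline. After a comparison of doses, 200 mg/kg was chosen for the later experiments, and group sizes are listed at 3 days after tMCAO, but neither the dose nor the time of collection is stated for the sequenced mice themselves. Any flushing of blood from these brains is not given in the sources used here.

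Hemoglobin carries oxygen in red cells as a tetramer of alpha and beta globin chains, each of which holds a heme. Alas2 is the erythroid form of aminolevulinate synthase, the first and rate-limiting enzyme of heme synthesis, and Alas1 is the form used by other tissues. Mammalian red cells have no nucleus, but young red cells (reticulocytes) still carry globin and Alas2 messages, and low globin expression has also been described in brain cells. In a hemisphere sequenced as a whole, fewer cells of a type and less RNA per cell cannot be told apart.

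The globin genes lie in pairs of near-identical copies. In GRCm38, Hba-a1 lies at chr11:32283672-32284486 and Hba-a2 at chr11:32296492-32297310, both on the plus strand. Hbb-bs lies at chr7:103826523-103827928 and Hbb-bt at chr7:103812524-103813923, both on the minus strand. Alas2 lies on the plus strand at chrX:150547417-150570622. Each globin transcript has 3 exons and the Alas2 transcript has 11 in GENCODE M21. Over 426 coding bases, Hba-a1 and Hba-a2 differed at 1 base (C381T, counted from 1 at the start codon), and the longest run they shared was 380 bases. Hbb-bs and Hbb-bt differed at 1 of 441 coding bases (C417T) and shared a run of 416. The stretches below are coding bases 351 to 410 of the alpha pair and 382 to 441 of the beta pair, with the base that differs in capitals, and they are shown because only reads that cross such a base, or that lie outside the coding sequence, can tell the copies apart.
Hba-a1: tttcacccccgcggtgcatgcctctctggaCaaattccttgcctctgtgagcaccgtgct
Hba-a2: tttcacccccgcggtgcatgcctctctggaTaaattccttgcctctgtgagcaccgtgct
Hbb-bs: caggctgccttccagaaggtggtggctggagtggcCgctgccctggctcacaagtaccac
Hbb-bt: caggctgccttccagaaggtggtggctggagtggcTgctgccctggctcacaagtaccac

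How reads that fit both copies were counted is not given in the sources used here. Over the 12 mice, Hba-a1 held 1637 of 1872 alpha globin counts (87.4%, 95% Wilson interval 85.9% to 88.9%) and Hbb-bs held 1974 of 2243 beta globin counts (88.0%, 86.6% to 89.3%). These intervals cover counting error only. Since reads may be shared between copies, the split within each pair is uncertain, and sums over the pairs are given after the single genes. Part of Alas2 overlaps Apex2, a DNA repair gene on the opposite strand, and without strand the reads of the overlap cannot be told apart. Apex2 had 84 to 122 counts in the Vehicle group, 100 to 137 in the Sham group and 114 to 147 in the LJP group. These counts are not scaled for depth, and the ranges overlapped. The part of Apex2 reads in the Alas2 counts was not tested.

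The promoters of the members are shown because the 5 genes varied together across mice. Each sequence is the 250 bases before the RefSeq start on the gene's strand in GRCm38.p6: chr11:32283422-32283671 for Hba-a1, chr7:103827929-103828178 for Hbb-bs, chr7:103813924-103814173 for Hbb-bt and chrX:150547167-150547416 for Alas2. Capitals mark 5 short motifs, each searched on both strands. AGATAA is a form of the GATA motif that Gata1 binds. TGATAA is its second form. CACCC is the motif of the erythroid factor Klf1. CCAAT is the box of that name in many promoters. ATATAA is a form of the TATA box. The Hba-a2 promoter is not printed because 247 of its bases are one unbroken run shared with that of Hba-a1.
Hba-a1: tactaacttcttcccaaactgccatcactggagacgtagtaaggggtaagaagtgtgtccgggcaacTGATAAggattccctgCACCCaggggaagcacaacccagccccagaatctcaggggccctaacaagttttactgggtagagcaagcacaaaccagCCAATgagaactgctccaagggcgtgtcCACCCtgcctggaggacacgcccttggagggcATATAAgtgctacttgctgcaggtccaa
Hbb-bs: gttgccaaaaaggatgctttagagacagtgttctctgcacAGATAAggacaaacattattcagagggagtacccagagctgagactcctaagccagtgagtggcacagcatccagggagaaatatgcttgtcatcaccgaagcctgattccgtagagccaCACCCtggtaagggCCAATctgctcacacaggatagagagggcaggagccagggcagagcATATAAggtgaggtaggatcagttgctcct
Hbb-bt: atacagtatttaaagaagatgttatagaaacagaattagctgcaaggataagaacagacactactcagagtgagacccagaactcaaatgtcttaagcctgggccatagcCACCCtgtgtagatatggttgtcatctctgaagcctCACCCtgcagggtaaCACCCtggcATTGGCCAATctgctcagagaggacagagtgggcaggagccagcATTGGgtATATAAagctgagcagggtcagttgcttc
Alas2: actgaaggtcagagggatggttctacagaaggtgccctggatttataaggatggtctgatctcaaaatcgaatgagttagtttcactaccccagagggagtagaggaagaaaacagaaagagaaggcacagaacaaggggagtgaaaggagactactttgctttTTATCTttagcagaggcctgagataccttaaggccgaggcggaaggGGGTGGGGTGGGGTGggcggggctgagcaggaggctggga

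All 4 globin promoters held the motif of Klf1, the CCAAT box and the TATA box, the last of these 28 to 31 bases before the start. A GATA match lay 183 bases before the start in Hba-a1 and 210 in Hbb-bs, and neither form was found in the Hbb-bt window. The Alas2 window held AGATAA on the opposite strand, 86 bases before the start, and CACCC at 3 places between 40 and 30 bases before it and next to each other, also on the opposite strand. No matches of different motifs overlapped in these windows. Of 27025 mouse promoters of the same length, 10.3% held AGATAA, 8.16% TGATAA, 51.3% CACCC, 34.5% CCAAT and 9.51% ATATAA. A match describes letters in the sequence and does not show that a factor binds there.

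Total counts per mouse ranged from 17960353 to 22216315, and a floor of 3 counts, the most that a count of 0 allows, corresponded to 0.129 to 0.173 CPM (counts scaled to the TMM-normalized library size). Levels below are CPM unless stated otherwise. All mice carry the same batch label. Libraries also stood apart in transcripts of other tissues. The summed level of 10 choroid plexus genes was 119 to 886 CPM in the Vehicle group, 175 to 697 in the LJP group and 205 to 1414 in the Sham group, and it was low in Vehicle 1 and 2, LJP 1, 2 and 4 and Sham 1. That of 8 airway and lung genes was 1.69 to 2.83 CPM in the LJP group against 10.5 to 16.6 in the other mice. The part of these differences in the results below was not tested.

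Hba-a1 (Entrez Gene 15122) had 22, 37, 14 and 18 counts in Sham mice 1 to 4, which is 1.27, 2.02, 0.767 and 0.933 CPM. In the Vehicle mice it had 744, 456, 64 and 91 counts, or 33.8, 19.6, 3.44 and 4.90 CPM. In the LJP mice it had 66, 42, 54 and 29 counts, or 3.00, 2.15, 2.94 and 1.62 CPM. Vehicle 1 and 2 were far above the other 10 mice, Vehicle 3 and 4 lay above every Sham and LJP mouse, and the LJP and Sham groups overlapped. The mean of the Vehicle group was 12.4 times that of the Sham group and 6.36 times that of the LJP group, and the mean of the LJP group was 1.95 times that of the Sham group.

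Hba-a2 (Entrez Gene 110257), the second alpha gene, was low throughout. It had 7, 10, 0 and 4 counts in Sham 1 to 4, 99, 53, 10 and 25 in Vehicle 1 to 4 and 13, 2, 6 and 6 in LJP 1 to 4. The levels were 0.404, 0.545, 0 and 0.207 CPM in the Sham group, 4.49, 2.28, 0.538 and 1.35 in the Vehicle group and 0.590, 0.102, 0.326 and 0.334 in the LJP group. Vehicle 3 lay within the range of both other groups, so no pair of groups was separate for this gene. The mean of the Vehicle group was 7.49 times that of the Sham group.

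Hbb-bs (Entrez Gene 100503605), the more abundant beta gene, was the steadiest member in the Sham group, with 33, 45, 42 and 42 counts (1.90, 2.45, 2.30 and 2.18 CPM). It had 873, 512, 82 and 105 counts in the Vehicle mice, which is 39.6, 22.0, 4.41 and 5.66 CPM. In the LJP mice it had 67, 40, 78 and 55 counts, or 3.04, 2.05, 4.24 and 3.07 CPM. The Vehicle group lay above both other groups, but only narrowly between Vehicle 3 and LJP 3. The mean of the Vehicle group was 8.12 times that of the Sham group and 5.78 times that of the LJP group.

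Hbb-bt (Entrez Gene 101488143), the second beta gene, had 9, 5, 3 and 6 counts in Sham 1 to 4, 101, 83, 7 and 19 in Vehicle 1 to 4 and 12, 7, 14 and 3 in LJP 1 to 4. Vehicle 3, at 0.377 CPM, lay within the Sham range of 0.164 to 0.519 CPM and the LJP range of 0.167 to 0.761 CPM, whereas Vehicle 1 and 2 stood at 4.58 and 3.57 CPM. The mean of the Vehicle group was 7.54 times that of the Sham group.

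Alas2 (Entrez Gene 11656) had 17, 13, 12 and 5 counts in Sham 1 to 4, or 0.980, 0.708, 0.658 and 0.259 CPM. Vehicle 1 to 4 had 148, 87, 19 and 28 counts, or 6.72, 3.74, 1.02 and 1.51 CPM, and LJP 1 to 4 had 12, 15, 12 and 13 counts, or 0.545, 0.767, 0.653 and 0.725 CPM. Vehicle 3 lay just above the highest Sham mouse, and the LJP mice lay inside the Sham range. The mean of the Vehicle group was 4.98 times that of the Sham group, a smaller ratio than for any globin gene, and 4.83 times that of the LJP group, whereas the means of the LJP and Sham groups differed by 1.03 times.

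**Figure D1:**
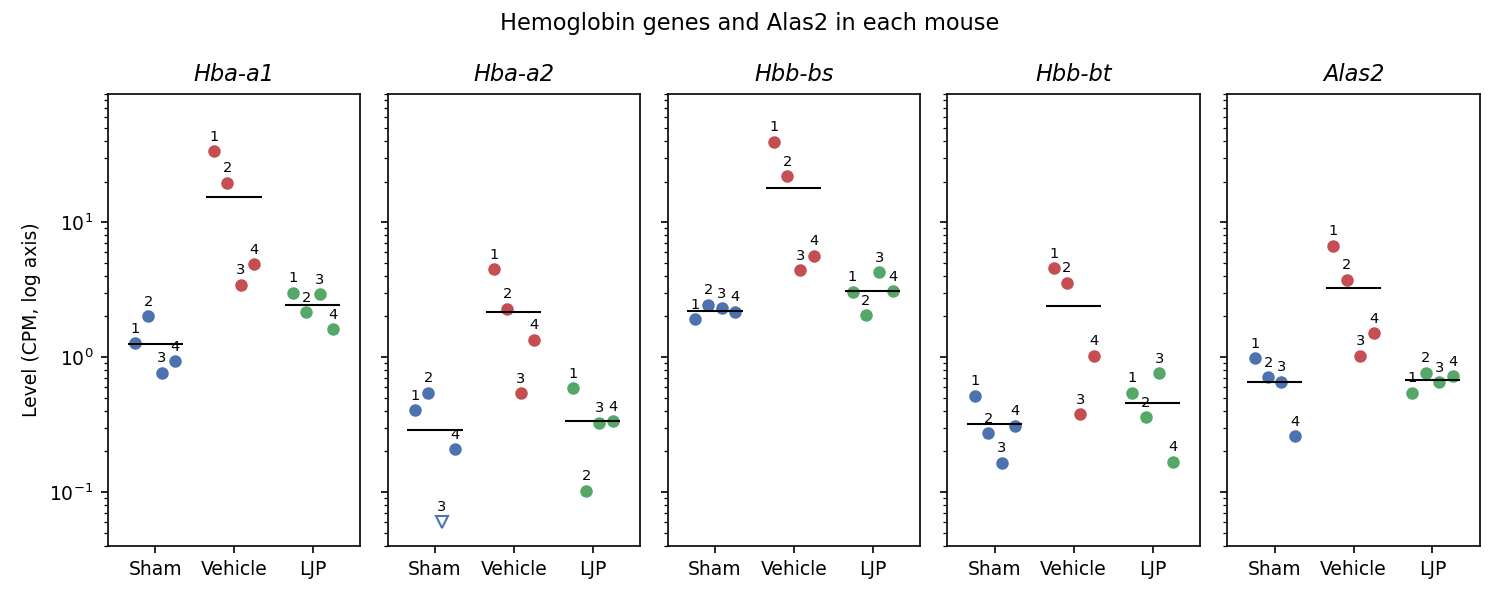
Level of each member (CPM, log axis) in 12 mice, with 1 point per mouse and a bar at the group mean. The open triangle at the bottom marks a mouse with 0 counts. Vehicle 1 and 2 stand apart from the other mice in every panel, and the LJP and Sham points overlap.

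Summed over the copies, alpha globin was at 0.767 to 2.56 CPM in the Sham group, 3.98 to 38.2 in the Vehicle group and 1.95 to 3.59 in the LJP group, so the Vehicle group lay above both others. Beta globin was at 2.42 to 2.72 CPM in the Sham group, 4.79 to 44.2 in the Vehicle group and 2.40 to 5.004 in the LJP group. For the beta sum Vehicle 3 (4.79 CPM) lay below LJP 3 (5.004 CPM), so the Vehicle and LJP groups overlapped, although they were separate for Hbb-bs alone.

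The summed level of the 4 globin genes was 4.06 ± 0.889 CPM (SD, n = 4) in Sham, 37.9 ± 34.4 in Vehicle and 6.32 ± 1.69 in LJP mice. The 4 Vehicle mice stood at 20.3, 11.7, 2.16 and 3.19 times the Sham mean, and the 4 LJP mice at 1.77, 1.15, 2.04 and 1.28 times. The coefficient of variation was 90.7% in the Vehicle group, 26.8% in the LJP group and 21.9% in the Sham group. The ratio of Vehicle to Sham was 9.33 by means and 7.82 by medians, and that of Vehicle to LJP was 6.00 by means and 4.88 by medians. Without Vehicle 1, the ratios of means fell to 5.68 against Sham and 3.65 against LJP. The ratio of LJP to Sham was 1.56, and the groups overlapped. Even in Vehicle 1, the 4 genes together took only 0.00840% of all counts.

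In edgeR's fit across all genes, the log2 fold changes of Vehicle against Sham, with standard errors (SE) in parentheses, were 3.63 (SE 0.66) for Hba-a1, 2.89 (0.75) for Hba-a2, 3.02 (0.60) for Hbb-bs, 2.91 (0.71) for Hbb-bt and 2.32 (0.55) for Alas2. All 5 members were called higher at an adjusted p-value below 0.05, in a comparison where 22.7% of the 17558 genes tested were called higher and 39.9% either way. For LJP against Vehicle, the log2 fold changes were -2.67 (0.62), -2.65 (0.72), -2.54 (0.58), -2.37 (0.67) and -2.27 (0.54) in the same order of genes. In that comparison edgeR called 0 of the 5 members, against 0.0228% of all genes, while all 5 had an unadjusted p below 0.05, against 29.7% of all genes, and DESeq2 called all 5, against 13.4%. Without Vehicle 3 or without Vehicle 4, edgeR called all 5, and it then called 21.6% and 11.7% of all genes. Without the filter on low counts it called 3 members and 1.96% of all genes. For LJP against Sham, the log2 fold changes lay between 0.05 (0.59) for Alas2 and 0.96 (0.67) for Hba-a1, and neither edgeR nor DESeq2 called a member, with 0 at an unadjusted p below 0.05. Over all genes edgeR called 4.75% (3.85% higher) and DESeq2 7.65%, and 18.8% had an unadjusted p below 0.05. Fitting only LJP and Sham, edgeR called 1 of the 3 members fitted and 23.8% of all genes. The 3 comparisons share groups, and nothing is read from these counts because the members were chosen from these data.

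The Vehicle group lay wholly above the Sham group for 3 of 5 members (Hba-a1, Hbb-bs and Alas2), and 20.7% of all genes tested were separate in that direction. It lay wholly above the LJP group for the same 3 genes, where 5.91% of genes had every LJP mouse below every Vehicle mouse and 5.77% the reverse. The separation of Hbb-bs from the LJP group did not hold for the sum of the beta pair. No member separated LJP from Sham, where 12.9% of genes were wholly higher in the LJP group and 12% wholly lower.

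Compared per kilobase of transcript, the order of the members in the Sham group was Hbb-bs at 3.46 CPM per kb, Hba-a1 at 2.23, Hba-a2 at 0.513, Hbb-bt at 0.503 and Alas2 at 0.323. In the Vehicle group the order was the same, at 28.1, 27.6, 3.84, 3.79 and 1.61 CPM per kb. In the LJP group Hbb-bt (0.727 CPM per kb) and Hba-a2 (0.601) changed places, behind Hbb-bs (4.85) and Hba-a1 (4.34) and ahead of Alas2 (0.333). Ranges of neighbours in the order overlapped, except between Hba-a1 and the third gene in the Sham and LJP groups. The order within each pair of copies is subject to the uncertainty of the split.

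Alpha and beta globin kept similar proportions to each other within the Vehicle group and varied more in the other groups. The ratio of summed alpha to summed beta globin level per kilobase was 0.987, 0.975, 0.949 and 1.07 in the 4 Vehicle mice, although their summed globin level differed widely. It ranged from 0.355 to 1.07 in the Sham group and from 0.689 to 1.14 in the LJP group, where fewer counts stand behind it. There were 8.57 to 12.7 globin counts for each Alas2 count in the Vehicle group, 4.18 to 14 in the Sham group and 6.07 to 13.2 in the LJP group. Over the 10 pairs of members, Pearson's correlation of log2 CPM across the 12 mice ranged from 0.825 to 0.962 (median 0.912). After the mean of each group was subtracted it ranged from 0.564 to 0.910. The points of these correlations share groups, libraries and, within copies, possibly reads.

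**Figure D2:**
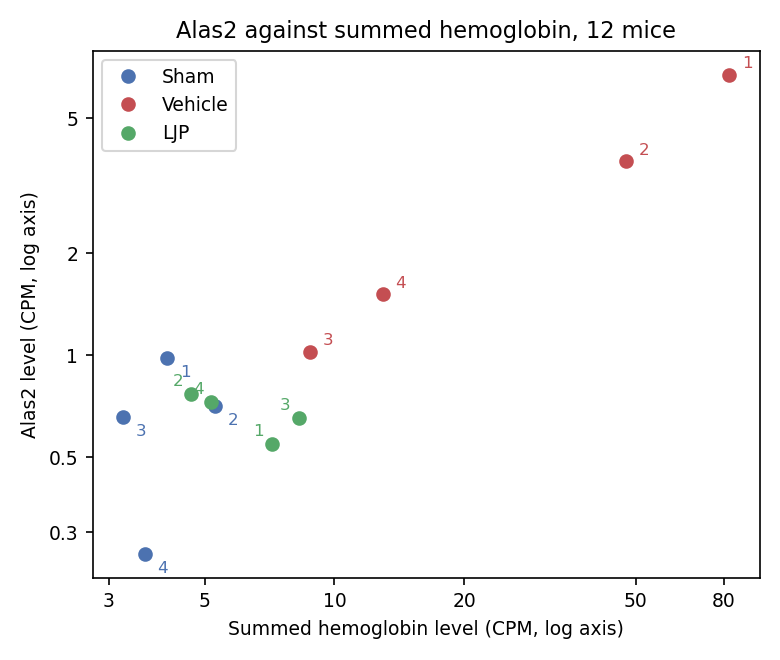
Alas2 level against the summed level of the 4 globin genes (CPM, both axes log), 1 numbered point per mouse. Vehicle 1 and 2 lie at the upper right, at 82.4 and 47.4 CPM of summed globin, and the 4 LJP mice lie among or close to the Sham mice.

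Other erythroid genes with enough counts to be tested moved in both directions. Of 43 listed genes of the red cell membrane, erythroid transcription and reticulocyte enzymes that were in the table, 27 had enough counts to be tested. Between Vehicle and Sham, 5 of the 27 rose, 9 fell and 13 did not pass the test. That is 18.5% higher and 33.3% lower, beside 22.7% higher and 17.3% lower among all genes tested. The median log2 fold change of the list was -0.09 beside a median of 3.54e-05 over all genes. In the Sham group, 25 of the 43 genes were above 1 CPM in every mouse. In the fit of only the compared pair of groups, 9 of the listed genes and 30.7% of all genes passed.

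Some genes of red cell precursors had 10 counts or fewer in every mouse, whereas others of the list, such as Tal1 and Epor, did not. Slc4a1, the band 3 anion exchanger, had 3, 1, 5 and 0 counts in Sham 1 to 4, 10, 2, 1 and 0 in Vehicle 1 to 4 and 0, 1, 1 and 0 in LJP 1 to 4. Gata1, a master regulator of erythroid genes, had 1 count in Sham 2 and 0 elsewhere. Klf1, which drives the adult beta globin genes, had 0 to 9 counts and its highest value in Vehicle 4, not in the mice with most globin. In all, 8 of the 43 genes had 3 counts or fewer in every mouse, among them Epb42, Rhag, Kel and Hemgn. These 4 were named after their values were seen. Ahsp, which encodes a chaperone of free alpha globin, is not analysed here.

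The erythroid genes that rose were led by Tent5c, Ube2l6, Gypc, Blvrb and Tal1. Tent5c, a poly(A) polymerase, had 48, 66, 62 and 52 counts in Sham 1 to 4, 219, 403, 524 and 516 in Vehicle 1 to 4 and 710, 242, 647 and 238 in LJP 1 to 4. It was thus lower in the mice with most globin than in Vehicle 3 and 4, and it was high in the LJP group. Its log2 fold change was 2.74 (SE 0.42, adjusted p by edgeR 0.000620) for Vehicle against Sham and 2.90 (0.42, adjusted p = 0.00205) for LJP against Sham. Ube2l6, a conjugating enzyme for ubiquitin and ISG15, rose by 1.69 (0.31, adjusted p = 0.00174) in the Vehicle group. Blvrb, a biliverdin reductase abundant in red cells, rose by 1.55 (0.30, adjusted p = 0.00218). Tal1, a factor of erythroid and endothelial cells named after its values were seen, rose by 1.53 (0.33, adjusted p = 0.00387).

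Gypc, the glycophorin that links the red cell membrane to its skeleton, had 22, 22, 27 and 26 counts in Sham 1 to 4, 69, 167, 46 and 56 in Vehicle 1 to 4 and 31, 17, 30 and 18 in LJP 1 to 4. It was highest in Vehicle 2, whereas all 5 members were highest in Vehicle 1. Its log2 fold change was 1.58 (SE 0.34, adjusted p by edgeR 0.00383) for Vehicle against Sham and -1.68 (0.34, adjusted p = 0.0678) for LJP against Vehicle. The latter passed without Vehicle 3 (adjusted p = 0.0105) or Vehicle 4 (0.0310), and by DESeq2 (0.00116).

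Red cell membrane genes formed most of those that fell, with 6 of the 10 tested lower in Vehicle against Sham, where 17.3% of all genes were lower. Tmod1, which caps actin filaments, was at 68.1 ± 3.07 CPM (SD, n = 4) in Sham, 42.8 ± 7.67 in Vehicle and 58.7 ± 3.32 in LJP mice, a log2 fold change of -0.67 for Vehicle against Sham (SE 0.11, adjusted p by edgeR 0.00101) and 0.46 for LJP against Vehicle (0.11, adjusted p = 0.0678). Sptb, beta spectrin, fell from 381 ± 9.46 to 226 ± 78.7 CPM (adjusted p = 0.0165), Dmtn, dematin, from 449 ± 13.6 to 263 ± 111 CPM (adjusted p = 0.0196) and Ank1, ankyrin 1, from 110.2 ± 6.03 to 74.5 ± 24.3 CPM (adjusted p = 0.0291). These 3 were named after their values were seen, and all 3 are also made by neurons. The summed level of 10 neuron genes was 4658 to 7188 CPM in the Vehicle group, 6895 to 8161 in the LJP group and 7581 to 8378 in the Sham group, with 4 of the 10 called lower in Vehicle, beside the same 17.3% of all genes. Its part in the fall of these genes was not tested. Epor, the erythropoietin receptor, fell from 11.1 ± 0.671 to 7.66 ± 1.91 CPM (log2 fold change -0.53, SE 0.17, adjusted p = 0.0248). Its call was lost without Sham 1 (adjusted p = 0.0548), Sham 4 (0.0636) or Vehicle 1 (0.0626) and in the fit of only these groups (0.0515).

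Between LJP and Vehicle, edgeR called 0 of the 27 erythroid genes, 7 had an unadjusted p below 0.05 (29.7% of all genes did) and DESeq2 called 5 (13.4% of all genes). Leaving out Vehicle 3 gave 7 calls (21.6% of all genes were called) and leaving out Vehicle 4 gave 4 (11.7%). Gypc, Tmod1 and Blvrb were among them in both cases. Blvrb had a log2 fold change of -1.01 (SE 0.29, adjusted p 0.0717). Between LJP and Sham, Tent5c was the 1 erythroid gene called, where 4.75% of all genes were called. Ube2l6 was at 1.15 (0.31, adjusted p = 0.0556) and Zfpm1, a partner of GATA factors, at -0.28 (0.09, adjusted p = 0.0874), and both passed by DESeq2 (0.00729 and 0.0466) and without Vehicle 2 (0.0166 and 0.0301). Fitting only LJP and Sham gave 11 calls in the list and called 23.8% of all genes.

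**Figure D3:**
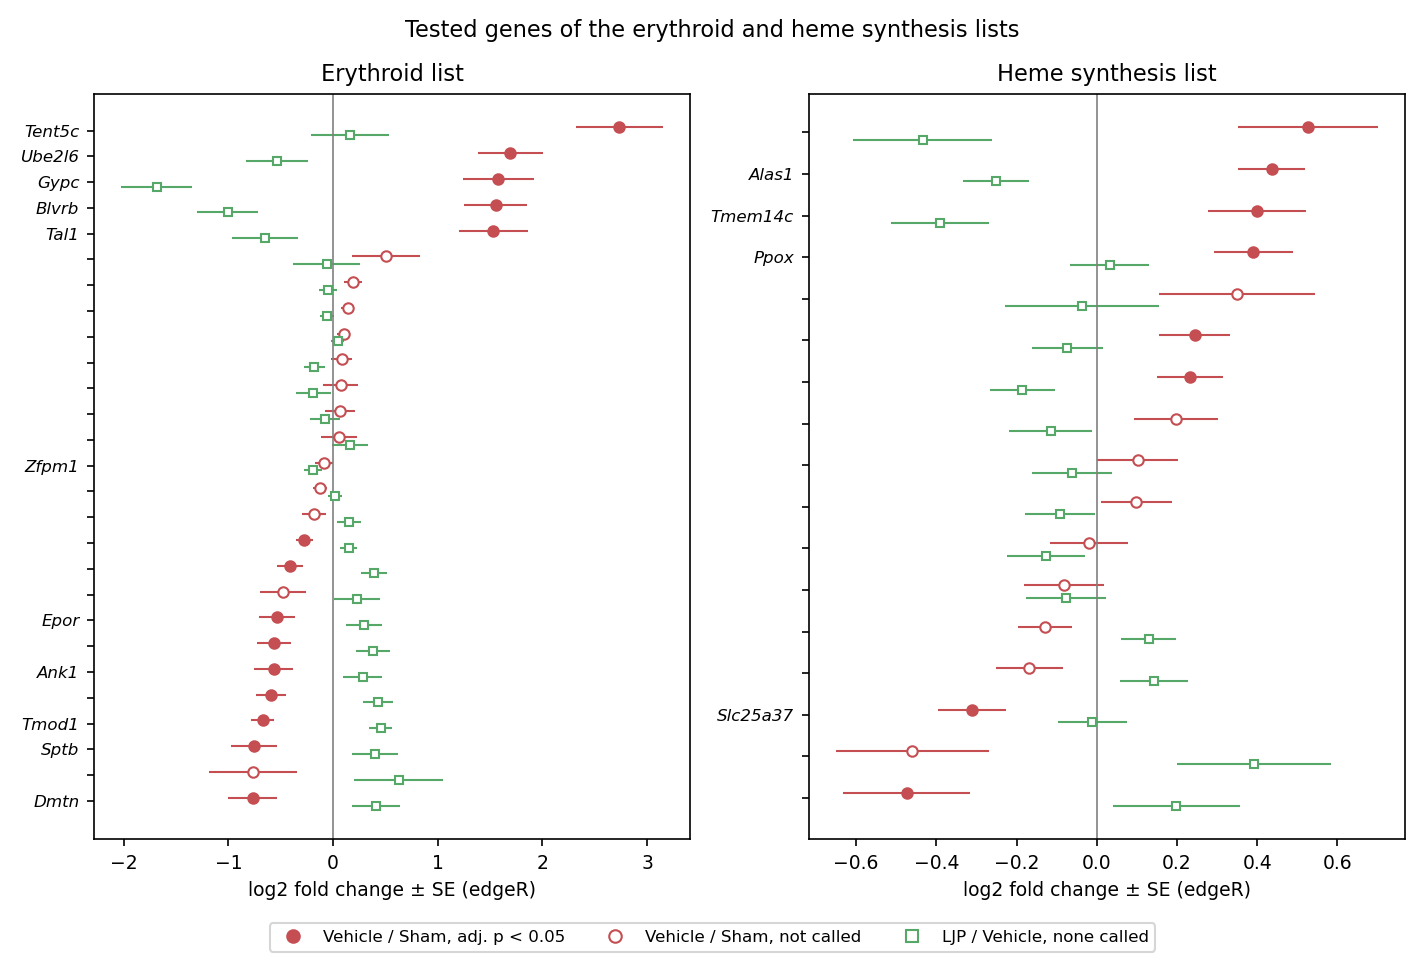
Log2 fold change with standard error (edgeR) of the tested genes of the erythroid list (left) and the heme synthesis list (right), for Vehicle against Sham (circles, filled where the adjusted p is below 0.05) and LJP against Vehicle (squares, none called). Symbols are given for the genes named in the text. The comparisons share the Vehicle mice, so opposite signs are not independent. In Vehicle against Sham, 5 erythroid genes rose and 9 fell, and 6 heme synthesis genes rose and 2 fell.

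Of 9 other globin genes in the table, 3 had enough counts to be tested (Ngb, Cygb and the myoglobin gene Mb), and none of the 3 passed with all 12 mice. The embryonic genes Hba-x, Hbb-bh1 and Hbb-bh2 had 0 counts in all 12 mice, and Hbb-y had at most 3 in any mouse. Neuroglobin (Ngb), a neuronal heme protein, was at 3.97 ± 0.818 CPM (SD, n = 4) in Sham, 5.36 ± 1.85 in Vehicle and 4.32 ± 1.01 in LJP mice, with a log2 fold change of 0.43 for Vehicle against Sham (SE 0.28, adjusted p by edgeR 0.241). Without Vehicle 2 that of Ngb was 0.65 (adjusted p = 0.0325). Cytoglobin (Cygb), a globin of fibroblast-like and other cells, was at 56.0 ± 5.17, 57.6 ± 8.08 and 55.2 ± 3.48 CPM (log2 fold change 0.04, SE 0.10, adjusted p = 0.783), and its sign turned when Sham 1 or Vehicle 1 was left out. Of the 3 tested genes of this list edgeR called 0 in each comparison, with 0 at an unadjusted p below 0.05 and 0 called by DESeq2. Hbq1a, a theta globin gene of the alpha cluster named after its values were seen, did not pass edgeR's filter on low counts, and DESeq2, which fitted it, called it in none of the 3 comparisons (adjusted p = 0.176 to 0.949). It had 38, 24, 4 and 4 counts in the Vehicle mice against 5 to 9 in the Sham mice and 6 to 10 in the LJP mice.

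Genes of heme synthesis outside Alas2 moved in both directions. Of 17 other genes of heme synthesis and mitochondrial transport, all tested, 6 rose and 2 fell in Vehicle against Sham, with a median log2 fold change of 0.10. These are 35.3% and 11.8% of the list, beside 22.7% and 17.3% of all genes. Leaving out single mice gave between 3 and 10 calls, with 3 without Sham 3 (31.1% of all genes called) and 10 without Vehicle 3 (45.9%). Alas1, the form of the first enzyme used outside red cells, rose from 52.0 ± 1.26 CPM (SD, n = 4) in the Sham group to a mean of 70.3 in the Vehicle group (range 64.4 to 83.6), 0.44 on the log2 scale (SE 0.08, adjusted p by edgeR 0.00211). Its 1502, 1946, 1211 and 1195 counts in Vehicle 1 to 4 put Vehicle 2 highest. It stood at 59.1 ± 2.01 CPM in the LJP group, with a log2 fold change of -0.25 (0.08, adjusted p = 0.0881) for LJP against Vehicle. Tmem14c, a transporter of later steps, rose by 0.40 on the log2 scale (SE 0.12, adjusted p by edgeR 0.0211) in Vehicle against Sham, with -0.39 (adjusted p = 0.0785) for LJP against Vehicle.

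Ppox, the enzyme before the last step of heme synthesis, and Slc25a37 (mitoferrin 1), which brings iron into mitochondria of red cell precursors, moved in opposite directions. Ppox was at 12.6 ± 0.704 CPM (SD, n = 4) in Sham, 16.5 ± 1.62 in Vehicle and 16.9 ± 1.05 in LJP mice, and it rose by 0.39 on the log2 scale in Vehicle (adjusted p by edgeR 0.00848) and 0.42 in LJP (adjusted p = 0.0289) against Sham. Slc25a37 was at 27.7 ± 1.58, 22.3 ± 1.67 and 22.1 ± 1.28 CPM, and it fell by 0.31 in Vehicle (adjusted p = 0.0123) and by 0.32 in LJP (adjusted p = 0.0497) against Sham. In LJP against Sham these were the 2 list genes called, where 4.75% of all genes were called. Leaving out any 1 Sham mouse or LJP 1, 3 or 4 gave 0 calls in the list. The adjusted p was then 0.0530 to 0.109 for Ppox and 0.0774 to 0.157 for Slc25a37. Slc25a37 also lost this call without LJP 2, Vehicle 1 or Vehicle 3, by library size (0.114) and without the filter on low counts (0.147), and its call in Vehicle against Sham was lost by library size (0.0532). For LJP against Vehicle, edgeR called 0 of the 17 genes, 4 had an unadjusted p below 0.05 and DESeq2 called 1, beside the same 29.7% and 13.4% of all genes. Without Vehicle 3, edgeR called 3, with Alas1 and Tmem14c among them, and it then called 21.6% of all genes.

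The summed level of genes that clear free hemoglobin and heme was highest in Vehicle 1 and 2, as that of the globins was. It was 6257 and 8618 CPM there, against 4214 and 4431 CPM in Vehicle 3 and 4. Not every gene of the list followed this pattern, Hpx below among them. Of 15 listed genes, 14 were tested and 10 rose in Vehicle against Sham (71.4%, beside 22.7% of all genes). None fell, and the median log2 fold change was 0.98. Blvrb is in both this list and the erythroid list, so the calls of the lists are not separate for it. Hmox1, heme oxygenase 1, which opens the heme ring, had 55, 71, 72 and 85 counts in Sham 1 to 4, 6016, 7339, 597 and 1076 in Vehicle 1 to 4 and 345, 218, 661 and 178 in LJP 1 to 4. Vehicle 1 and 2 again stood apart, LJP 3 lay above Vehicle 3, and every LJP mouse lay above the Sham range. Its log2 fold change was 5.46 (SE 0.76, adjusted p by edgeR 0.000376) for Vehicle against Sham, -3.23 (0.66, adjusted p = 0.0678) for LJP against Vehicle and 2.23 (0.70, adjusted p = 0.0983) for LJP against Sham. For LJP against Vehicle it passed without Vehicle 3 (adjusted p = 0.00875) or Vehicle 4 (0.0310), and for LJP against Sham without Vehicle 2 (0.0448) or Vehicle 3 (0.0358).

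Hp, haptoglobin, which binds free hemoglobin, had 12, 6, 16 and 6 counts in Sham 1 to 4, 581, 366, 19 and 50 in Vehicle 1 to 4 and 18, 8, 16 and 3 in LJP 1 to 4. Like the members, it was highest in Vehicle 1, second in Vehicle 2, and similar in the LJP and Sham groups. Its log2 fold change was 4.37 (SE 0.90, adjusted p by edgeR 0.00304) for Vehicle against Sham and -4.31 (0.89, adjusted p = 0.0678) for LJP against Vehicle, where it passed without Vehicle 3 (adjusted p = 0.00875) or Vehicle 4 (0.0310). Cd163, the macrophage receptor for haptoglobin-bound hemoglobin, had 176, 674, 98 and 134 counts in the Vehicle mice, 47 to 70 in the Sham mice and 67 to 96 in the LJP mice, and it rose by 2.02 (0.46, adjusted p = 0.00499) in Vehicle against Sham. Without Vehicle 2 the log2 fold change of Cd163 was 1.16 (adjusted p = 0.00131).

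Hpx, hemopexin, which binds free heme, followed another order. It had 1, 5, 1 and 10 counts in Sham 1 to 4, 22, 15, 7 and 14 in Vehicle 1 to 4 and 15, 20, 19 and 19 in LJP 1 to 4. Its log2 fold change was 1.57 (SE 0.54, adjusted p by edgeR 0.0357) for Vehicle against Sham and 2.01 (0.53, adjusted p = 0.0510) for LJP against Sham. The first was lost without the filter on low counts and without Sham 1, 2 or 3 or Vehicle 1, 2 or 4 (adjusted p = 0.0515 to 0.0949), and the second passed without Sham 4 or Vehicle 1, 2 or 3 (0.0229 to 0.0493). The ferritin chains Ftl1 and Fth1, which store iron, rose by 2.15 (0.30, adjusted p = 0.000382) and 1.27 (0.21, adjusted p = 0.000985) in Vehicle against Sham. Ftl1 was the 1 gene of the list called in LJP against Sham, at 1.19 (0.29, adjusted p = 0.0360), where 4.75% of all genes were called. The Ftl1 call was lost without any 1 Sham mouse and without LJP 1 or 3 (adjusted p = 0.0859 to 0.128). In that comparison the list had 5 calls in the fit of only these groups (23.8% of all genes called), 3 by DESeq2 (7.65%), 4 without Vehicle 2 (13.3%) and 3 without Vehicle 3 (5.32%). For LJP against Vehicle, edgeR called 0 of the 14 genes, 10 had an unadjusted p below 0.05 and DESeq2 called 8, where 29.7% and 13.4% of all genes did so. Without Vehicle 3 or without Vehicle 4, edgeR called 9 of the list, and it then called 21.6% and 11.7% of all genes.

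Marker lists of neutrophils and vessels were highest in Vehicle 1 and 2, like the members. For the counts of list genes called in Vehicle against Sham below, the shares of all genes were 22.7% higher and 17.3% lower. The summed level of 12 neutrophil genes was 5.94 to 7.18 CPM in Sham, 34.8 to 381 in Vehicle and 22.4 to 32.7 in LJP mice, and both of the 2 genes with enough counts rose in Vehicle against Sham. Relative to the Sham median on the log2 scale, it stood at 5.75, 4.71, 2.29 and 2.73 in Vehicle 1 to 4, and the summed globin level stood at 4.42, 3.62, 1.18 and 1.74. The order of the 4 mice was thus the same for both. Lcn2 and Csf3r, the 2 genes tested, took 89.3% to 95.4% of the counts of this list in the Sham group, 56.3% to 97.5% in the Vehicle group and 95.2% to 98.6% in the LJP group. The other 10 genes together had 6 to 11 counts in the Sham mice, 3676, 948, 16 and 108 in Vehicle 1 to 4 and 6 to 22 in the LJP mice. The summed level of 12 endothelial genes was 293 to 324 CPM in Sham, 542 to 2567 in Vehicle and 338 to 511 in LJP mice, and 10 of the 12 rose in Vehicle. It was highest in Vehicle 2. That of 12 lymphocyte genes was lower after ischemia, at 5.37 to 6.84 CPM in the Vehicle group and 7.89 to 13.7 in the LJP group against 19.7 to 26.4 in the Sham group, with 1 of the 2 tested genes called higher (Cd79b) and 1 lower (Cd4). Cd4, which macrophages and microglia can also express, took 95.9% to 96.8% of these counts in the Sham group and 34.4% to 81.1% in the Vehicle group. The other 11 lymphocyte genes together had 13 to 20 counts in the Sham mice, 24 to 82 in the Vehicle mice, most in Vehicle 2, and 17 to 34 in the LJP mice. Lcn2, Csf3r, Cd79b, Cd4 and Gp1bb were named after their values were seen. The summed level of 12 platelet genes was 105 to 119 CPM in the Vehicle group, 111 to 133 in the LJP group and 136 to 147 in the Sham group, with 2 of the 6 tested genes called higher and 1, Gp1bb, lower. Gp1bb took 93.2% to 94.9% of these counts in the Sham group, 52.1% to 89.97% in the Vehicle group and 89.3% to 92.7% in the LJP group. Without Gp1bb the order of the groups turned, since the other 11 platelet genes together had 120 to 168 counts in the Sham mice, 936, 1252, 213 and 275 in Vehicle 1 to 4 and 165 to 245 in the LJP mice. The sum of 8 oligodendrocyte genes was 5861 to 6389 CPM in the Vehicle group, 4668 to 5835 in the LJP group and 4644 to 5656 in the Sham group, with 2 of 8 called higher in Vehicle. The part of these cells in the globin levels was not tested.

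**Figure D4:**
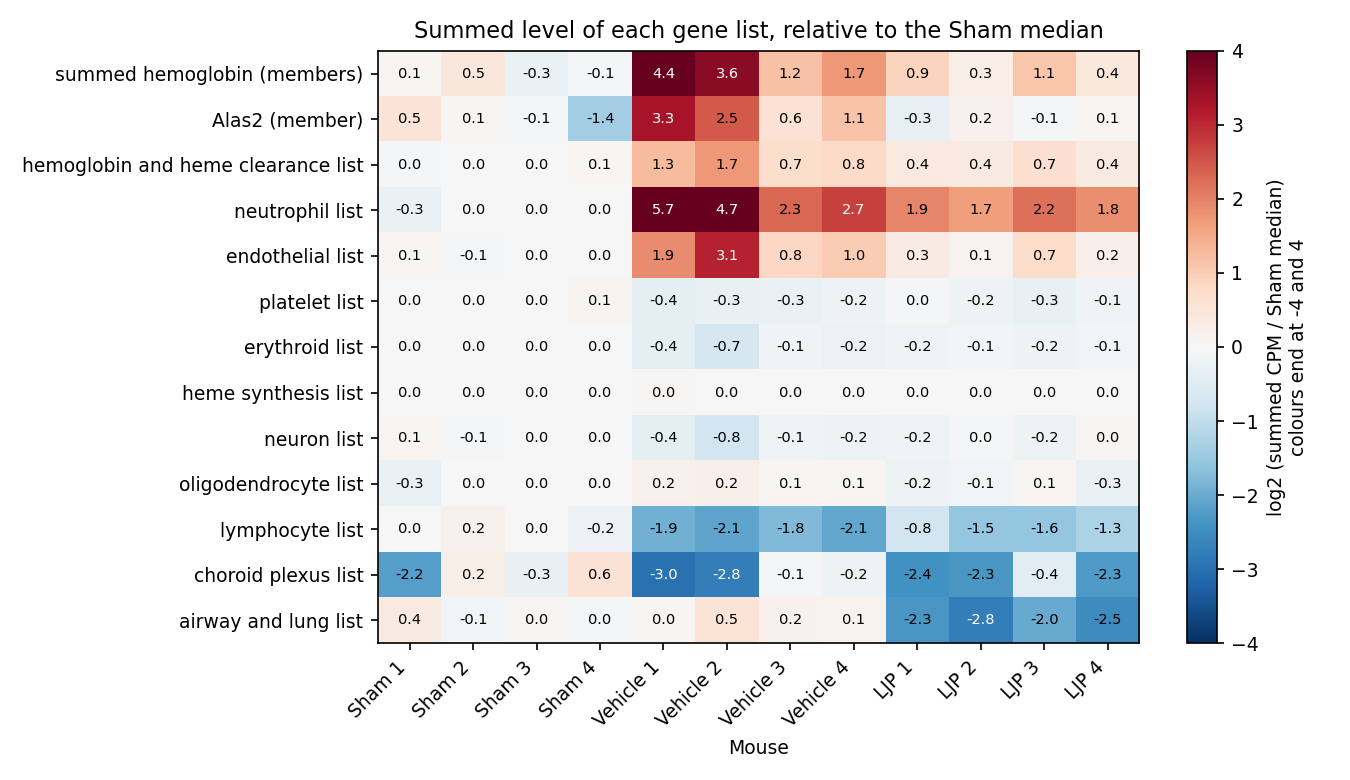
Summed level of the globin genes, of Alas2 and of each marker list in each mouse, as log2 of the ratio to the Sham median (color and printed value). Globin, Alas2, neutrophil and endothelial values are highest in Vehicle 1 and 2, and the choroid plexus values are low in Vehicle 1 and 2, LJP 1, 2 and 4 and Sham 1. In the Sham mice the platelet and lymphocyte values rest mostly on Gp1bb and Cd4.

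All other genes tested, those of the lists above included, were compared with the pattern of the members. Likeness was measured as Pearson's correlation of log2 CPM with the mean of the 5 members over 12 mice, and of 17553 genes 555 were above 0.9 and 551 below -0.9, with a median of -0.00787. The closest were Cd24a (0.976), a surface glycoprotein, Angpt2 (0.974), a ligand of the endothelial receptor Tek, Odc1 (0.973), the first enzyme of polyamine synthesis, Irak3 (0.971), an inhibitor of Toll-like receptor signaling, and Adm (0.968), the vasodilator peptide adrenomedullin. Angpt2 had 1498, 2275, 51 and 247 counts in the Vehicle mice, 13 to 25 in the Sham mice and 22 to 59 in the LJP mice. Without Vehicle 1 and 2, which lay farthest from the median of the members, the 5 correlations were 0.931, 0.937, 0.849, 0.912 and 0.854 in the order named. After each group's mean was subtracted, the closest genes were Fgr (0.967), a kinase of myeloid cells, Neo1 (0.952), a receptor of netrin and of repulsive guidance molecules, Elk1 (0.949), a transcription factor, Lsm7 (0.948), a part of RNA-processing complexes, and Tha1 (0.943), threonine aldolase. Over the 10 mice other than Vehicle 1 and 2, with group means kept, the correlation was 0.866 for Fgr and -0.216 for Lsm7. These correlations are descriptions over 12 mice that share groups and libraries.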

How the data were processed

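The authors deposited read counts per gene and mouse without normalization, and the 12 columns were mapped to Sham, Vehicle and LJP mice by their labels. Poly(A) RNA was sequenced as paired-end reads. The submitters' processing notes name featureCounts, DESeq2 and the builds GRCm39 and mm10. The gene starts in the table equal those of RefSeq GRCm38.p6 for 39750 of 39752 genes, so that build is used here. The handling of strand and of reads shared between genes is not given in the sources used here. Of 39756 genes, 30210 had a count.

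The count test was edgeR 4.0.16 in R 4.3.3. After filterByExpr, which kept 17558 genes, and TMM scaling, all 12 mice entered one quasi-likelihood fit by group. Benjamini-Hochberg adjustment ran over all genes tested, and an adjusted p below 0.05 was counted as a call. Each standard error is the absolute log2 fold change divided by the root of its F statistic. Log2 CPM for correlations used a prior count of 2. Nothing says that mice were pooled or sequenced more than once, and p-values measure the spread between these mice. The test was checked on simulated counts.

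The members and lists were chosen with earlier results of these data known. Named genes are the 5 members, the fixed genes Ahsp, Slc4a1, Klf1, Gata1, Epor, Ngb, Cygb, Alas1, Hmox1, Hp, Hpx and Cd163, the 3 tested genes with the smallest p in the erythroid, heme synthesis and clearance lists in each comparison, and the 5 genes most like the members by each measure. Some genes that this rule names are not reported here. Alternatives were RLE factors, library size only (with and without the members), no filter, a fit of the compared pair alone, a block for replicate number, DESeq2 1.42.0, and leaving out each mouse. Promoters came from RefSeq (GRCm38.p6) and coding sequences from GENCODE M21. All 5 members matched. Plots were drawn with matplotlib 3.10.9.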

Additional observations from a re-analysis of the deposited data

Results flagged for a closer look

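In 5 of 78 groups of 4 mice, 1 mouse lay far from the other 3, measured as its gap to the nearest mouse divided by the range of the group. Chance gives about 1 in 20 groups, or 3.9 of 78. Vehicle 2 was far above the other Vehicle mice for Cd163 (0.885), Gypc (0.861) and Tmem14c (0.915). LJP 3 was far below the other LJP mice for Epor (0.881), and LJP 1 for Hpx (0.903). None of the 5 members met this measure in any group. The measure looks for 1 mouse apart from the other 3, so Vehicle 1 and 2, both high in every member, can hide each other.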

How the results depend on the processing

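The summed hemoglobin ratio kept its direction in every setting run. On the log2 scale it was 3.22 for Vehicle against Sham (2.50 to 3.55 with a mouse left out), -2.58 for LJP against Vehicle (-2.91 to -1.87) and 0.64 for LJP against Sham (0.48 to 0.79). Genes called in LJP against Vehicle numbered 4, with 593 without the filter, 2 in the fit of only these groups, 2313 by DESeq2 and 3 to 3857 with a mouse left out. In LJP against Sham 834 were called, with 4043 in the fit of only these groups, 1458 by DESeq2 and 393 to 2357 with a mouse left out (2357 without Vehicle 2). In Vehicle against Sham 7014 were called, and 5285 to 8200 with a mouse left out. Erythroid list calls in Vehicle against Sham were 14, with 9 in the fit of only these groups and 11 to 15 with a mouse left out. In LJP against Vehicle they were 0, with 2 without the filter, 5 by DESeq2 and 0 to 7 with a mouse left out. In LJP against Sham they were 1, with 2 by library size, 2 without the filter, 11 in the fit of only these groups, 3 by DESeq2 and 1 to 5 with a mouse left out. The log2 fold change of Cygb in Vehicle against Sham turned from 0.04 to -0.0187 without Sham 1 and -0.0476 without Vehicle 1, in a range up to 0.112 without Vehicle 2. Of 197 other values of named genes, 164 kept their call, 24 gained and 9 lost it, and of 396 values with a mouse left out 334 kept it, 28 gained it, 32 lost it and 2 turned sign. The cause of these changes was not tested. Leaving out mice or groups leaves fewer samples, and calls were both lost and gained in such fits.

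Replicate numbers did not pair the mice, since deviations of same-numbered mice correlated at -0.322 to 0.114. With the replicate block, 2 genes were called in LJP against Vehicle and 464 in LJP against Sham, where the calls of Ppox (adjusted p = 0.0970), Slc25a37 (0.0847) and Ftl1 (0.0896) were lost, as was that of Epor in Vehicle against Sham (0.0523). Members and several list genes rest on few counts, so a difference of a few counts in the Sham and LJP groups was not detectable at this depth.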

Other observations

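Several transcripts of circulating cells were highest in Vehicle 1 and 2, as the globins were, and all of those named here were chosen after their values were seen. Nfe2, a factor of erythroid cells and megakaryocytes, had 0 counts in every Sham mouse, 61, 37, 2 and 4 in Vehicle 1 to 4 and 1, 3, 0 and 0 in LJP 1 to 4. Its counts in Vehicle 3 and 4 were close to those of the LJP mice. Nfe2 did not pass edgeR's filter on low counts, so it is not among the erythroid genes counted as rising above. DESeq2 called it higher in Vehicle against Sham (adjusted p = 5.18e-05). Of other filtered erythroid genes, DESeq2 did not call Slc4a1 (0.903) or Klf1 (0.481). Ppbp, a chemokine stored in platelets, had 96, 94, 1 and 6 counts in the Vehicle mice, 0 to 4 in the Sham mice and 0 to 1 in the LJP mice. Pf4, platelet factor 4, which brain macrophages also make, had 249, 697, 20 and 88 counts in the Vehicle mice, 5 to 12 in the Sham mice and 13 to 35 in the LJP mice, and it was highest in Vehicle 2, unlike the globins. S100a8, an abundant neutrophil message, had 1159, 278, 4 and 33 counts in the Vehicle mice, 1 to 3 in the Sham mice and 0 to 4 in the LJP mice.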
